A study of Mus musculus with 9 samples.

Results

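The non-P450 enzymes of xenobiotic and odorant metabolism of the mouse nasal mucosa were described across a control group and a papain model with and without exosomes. Members were all genes of the expression table whose symbol places them among the UDP-glucuronosyltransferases (Ugt1a, Ugt2a, Ugt2b, Ugt3a), the glutathione S-transferases (Gsta, Gstk, Gstm, Gsto, Gstp, Gstt, Gstz), the sulfotransferases (Sult), the flavin-containing monooxygenases (Fmo), the carbonyl reductases (Cbr), the aldehyde dehydrogenases (Aldh) and the carboxylesterases (Ces). The rule found 115 of 21930 genes in 10 families. It used names only, and no measured value.

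Poly(A) RNA of nasal mucosal tissue from mice labelled wild type (WT) was sequenced in 9 libraries, 3 in each of 3 groups. The control group carries the treatment label none. The eCRS group, named for eosinophilic chronic rhinosinusitis, received 20 µg of papain, a plant cysteine protease, into the nose in 20 µl of PBS on days 0 to 2 and 7 to 11. The eCRS_Exo group received the same papain and, on days 7 to 11, intranasal exosomes (small vesicles) from mesenchymal stem cells, where other mice received PBS, and the mice were killed on day 12. Which libraries received the PBS is not spelled out sample by sample, and the labels name neither strain, age or sex nor the source of the exosomes. Nor do they tell whether every library is a mouse of its own, so the p-values reflect differences among libraries that may be technical.

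Odorants and inhaled chemicals are cleared in the nose by enzymes that first add or expose a reactive group and then attach a polar one. Flavin-containing monooxygenases oxidise nitrogen and sulfur atoms, carbonyl reductases and aldehyde dehydrogenases reduce or oxidise aldehydes and ketones, and carboxylesterases split esters. Glucuronosyl-, glutathione and sulfotransferases then attach glucuronic acid, glutathione or sulfate. In the olfactory mucosa such enzymes are known mainly from the sustentacular cells, which support the olfactory neurons, and from the Bowman glands beneath them.

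Levels are given as FPKM, a fragment count divided by transcript length and by the size of the library, and a rough estimate put the depth at 15.6 to 25.8 M (mega) fragments. The 15 most abundant genes took 77.0% to 78.6% of the summed FPKM in controls, 64.7% to 77.8% in eCRS and 38.2% to 64.3% in eCRS_Exo. The remaining genes had more of the library where these took less. The median log2 change of all genes tested was 0.19 for eCRS against control, 0.56 for eCRS_Exo against eCRS and 0.76 for eCRS_Exo against control. Each value is therefore given as deposited and after division by a median-of-ratios factor per library (scaled), which brought these medians to -0.00399, -0.00587 and 0.00915. Markers of sustentacular cells, olfactory neurons, Bowman glands and ciliated cells were present in every group. In bulk tissue, fewer cells of a type and less RNA per cell cannot be told apart.

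Of the 115 members, 23 were listed at 0 in every library, among them all 8 Sult2a genes of chr7:13623967-14494230 and both Ugt3a genes. A further 29 stayed under the filter of 1 FPKM in at least 3 libraries, and the highest single value among those was 1.55 FPKM, for Ces1h. The remaining 63 members were tested as deposited and 62 scaled. They comprised 18 of 21 Aldh, all 4 Cbr, 6 of 19 Ces, 5 of 7 Fmo, 17 of 22 Gst (16 scaled), 8 of 21 Sult, 3 of 9 Ugt1a and 2 of 3 Ugt2a genes. None of the 7 Ugt2b genes passed, and the highest of them in controls, Ugt2b34, had 0.134 ± 0.0513 FPKM (mean ± SD, n = 3, as throughout).

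A few members carried most of the signal. Cbr2, a carbonyl reductase known from lung, had 955 ± 58.3 FPKM in controls, and Ugt2a1, the glucuronosyltransferase known for conjugating odorants, had 670.1 ± 41.7 FPKM. These 2 genes made up 47.6% of the summed FPKM of all members. Next in order were the sulfotransferase Sult1c1 (196 ± 10.4 FPKM), Gstm1 (173 ± 18), Gsto1 (161 ± 45.2), Aldh1a1 (147 ± 24.1) and Ces1d (139.6 ± 7.91). From Gstm1 to Ces1d, neighbours in this order differed by less than their spread. Summed over all members, the level was 3278 to 3489 FPKM in controls, 3127 to 5020.1 in eCRS and 5086 to 6700.5 in eCRS_Exo. Scaled, the sums were 4297 to 4559.6 in controls, 4404 to 4697 in eCRS and 3839.7 to 4324 in eCRS_Exo. By family, the scaled Cbr sum was 1207 to 1357 in controls, 1249 to 1311 in eCRS and 1319 to 1393 in eCRS_Exo, while the Gst sum was 874 to 1063 in controls, 917 to 1083 in eCRS and 699.6 to 892 in eCRS_Exo, and the Gst ranges of control and eCRS_Exo overlapped only at their edges.

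**Figure D1:**
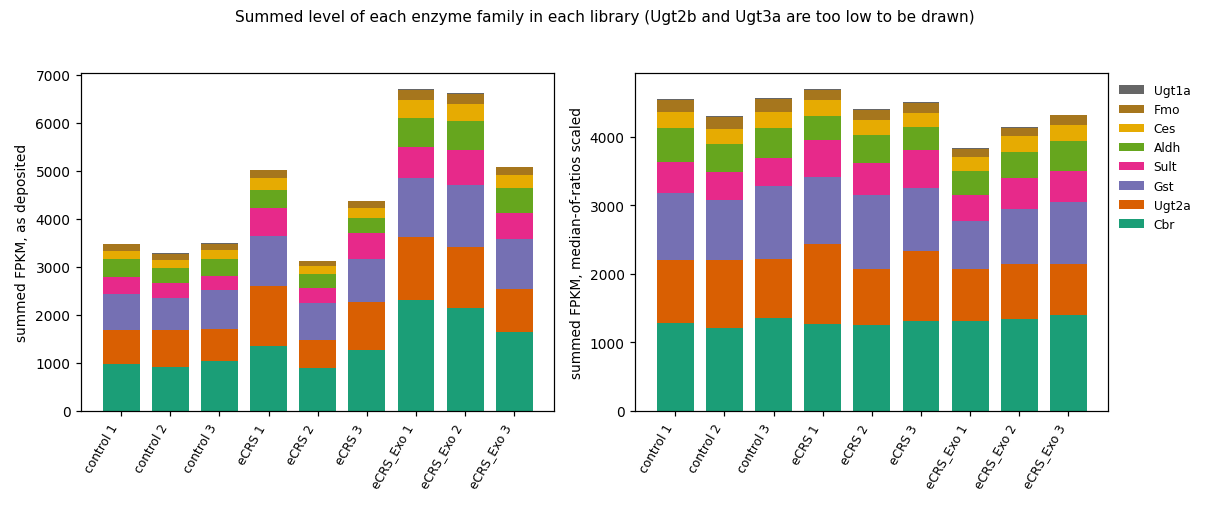
Summed level of each enzyme family in each of the 9 libraries, as deposited FPKM on the left and median-of-ratios scaled FPKM on the right, with stacked segments for the families. Deposited sums reach 6701 FPKM in eCRS_Exo library 1 against 3278 to 3489 in controls, while scaled sums stay between 3840 and 4697 in all libraries.

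The comparison of eCRS with control addresses what the papain model changed. The controls carry the treatment label none, so papain and the repeated intranasal dosing in PBS cannot be told apart in it. Glutathione transferases went opposite ways on both scales: Gstm5 and Gsto1 rose and Gstm1 fell. The aldehyde dehydrogenases Aldh1a3 and Aldh1a7 and the sulfotransferase Sult1b1 rose on both scales, and no member of either family fell on both. With limma, as deposited, 5 of 63 members were higher, where 3.01% of all genes tested were, and 2 were lower, where 0.518% were. Scaled, 6 of 62 were higher against 5.77% of all genes, and 8 were lower against 4.15%. On both scales 5 were higher and 2 lower, against 2.74% and 0.49% of the genes tested on both. The members' median log2 change was 0.04 as deposited and -0.17 scaled, beside 0.19 and -0.00399 for all genes. Log2 changes of single genes are given ± SE. The fallers found only on the scaled values were Aldh2, Fmo1, Fmo2, Fmo5, Gsta2 and Gstm2, and the riser found only there was Sult1c1. As deposited the count higher was 3 without any 1 control library, eCRS library 1 or eCRS library 3, and 11 without eCRS library 2, and the count lower was 1 without control library 2 or 3. All genes called higher numbered 150 to 284 in the fits with 3 and 1624 in the fit with 11, beside 383 with all libraries. All genes called lower numbered 34 and 45 without control library 2 and 3, beside 66. Scaled, the count higher was 3 without control library 2 or 3, where 410 and 363 of all genes were higher, beside 722.

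The comparison of eCRS_Exo with eCRS addresses what the exosomes changed in the model. On both scales 8 members rose (Aldh1l1, Aldh2, Aldh3b1, Aldh4a1, Fmo1, Fmo2, Gstm1 and Sult4a1) and 1, Aldh1a3, fell, against 13.4% and 0.699% of the genes tested on both. As deposited 40 of 63 members were higher and 1 lower, but 63% of all genes were higher there and 0.73% lower. Scaled, 8 of 62 were higher and 6 lower, against 13.4% and 16.2% of all genes, so these shares lay close to the background or under it. The median log2 change of the members was 0.59 as deposited and -0.02 scaled, beside 0.56 and -0.00587 for all genes. Ces1f, Fmo6, Gstk1, Gstm5 and Sult1e1 fell on the scaled values only. The scaled count higher was 4 without eCRS library 3 or eCRS_Exo library 2 and 5 without eCRS_Exo library 1, and the deposited count lower was 2 without eCRS library 2. All genes called higher in those scaled fits numbered 971, 798 and 734, in that order, beside 1672 with all libraries. All genes called lower in that deposited fit numbered 121, beside 93.

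Against control, the eCRS_Exo libraries were higher on both scales in Aldh1a7, Aldh3b1 and Sult1b1, where 12.4% of the genes tested on both scales were higher and 0.523% lower. As deposited 44 of 63 members were higher and 0 lower (47 and 0 at an unadjusted p under 0.05), beside 84.3% and 0.526% of all genes. Scaled, 3 of 62 were higher, beside 12.3% of all genes, and 17 were lower, beside 15.6%. For 4 members, Aldh2, Aldh3a2, Fmo1 and Gsta4, the call was higher as deposited and lower scaled, so their direction depends on the scale. The scaled count lower was 11 without control library 1, 7 without control library 3 or eCRS_Exo library 1, and 9 without eCRS_Exo library 2, and the deposited count lower was 1 without eCRS_Exo library 3. All genes called lower in those scaled fits numbered 1128, 1091, 877 and 1110, in that order, beside 1954 with all libraries. In that deposited fit they numbered 82, beside 67. The 3 comparisons share libraries, so a value high in eCRS enters the first and the second comparison with opposite sign.

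**Figure D2:**
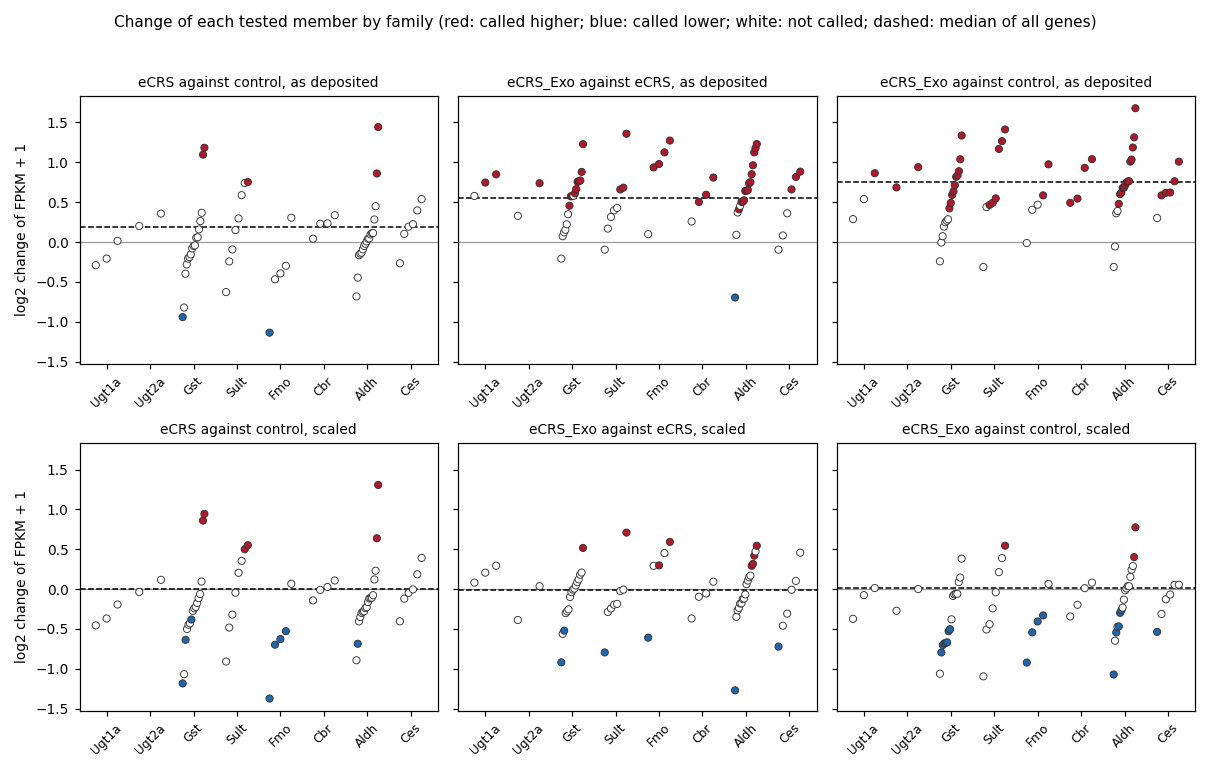
Log2 change of FPKM + 1 for each tested member (points), by family, in the 3 comparisons, as deposited in the upper row and scaled in the lower, with red for called higher, blue for called lower and white for not called at an adjusted p of 0.05. The dashed line is the median of all genes tested, which lies at 0.19, 0.56 and 0.76 as deposited and near 0 scaled.

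Of the oxidising and reducing enzymes, the flavin-containing monooxygenases Fmo1, Fmo2 and Fmo5 were lower after papain on the scaled values, and 0 of the 5 tested members of the family were higher on either scale (also 0 at an unadjusted p under 0.05 by limma). Fmo1, Fmo2, Fmo4 and Fmo6 lie together on chromosome 1, and Fmo5 lies on chromosome 3.

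Fmo1 (chr1:162829561-162866610) had 16.6, 17.7 and 18.7 FPKM in controls, 15.4, 10.9 and 13.7 in eCRS and 29.2, 30.02 and 22.5 in eCRS_Exo. Scaled, it had 21.7, 23.3 and 24.5 in controls, 14.4, 15.4 and 14.1 in eCRS and 16.7, 18.8 and 19.1 in eCRS_Exo, so that the 3 groups did not overlap and eCRS_Exo lay between the other two. Its change from control to eCRS was -0.39 ± 0.19 as deposited (adjusted p = 0.302) and -0.63 ± 0.08 scaled (adjusted p = 0.00165), and from eCRS to eCRS_Exo 0.98 ± 0.19 as deposited (adjusted p = 0.000866) and 0.30 ± 0.08 scaled (adjusted p = 0.0227). The scaled call of the second comparison was lost without eCRS library 3 or either of eCRS_Exo libraries 2 and 3 (adjusted p = 0.075, 0.081 and 0.051).

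Fmo2 (chr1:162874317-162898726), the form known as the main monooxygenase of lung, had 13.2, 12.4 and 14.6 FPKM in controls, 12.2, 9.24 and 10.8 in eCRS and 32.3, 27.7 and 22.6 in eCRS_Exo. In its scaled values the eCRS libraries (11.4, 13.01 and 11.1) lay below all others, and the eCRS_Exo libraries (18.5, 17.4 and 19.2) overlapped the controls (17.2, 16.2 and 19.1). The change from control to eCRS was -0.30 ± 0.19 as deposited (adjusted p = 0.436) and -0.53 ± 0.09 scaled (adjusted p = 0.00607), and the change from eCRS to eCRS_Exo was 1.27 ± 0.19 as deposited (adjusted p = 0.000267) and 0.59 ± 0.09 scaled (adjusted p = 0.00337). No 50-base stretch of Fmo2 transcripts occurs in another gene of the annotation. Fmo6 (chr1:162916551-162937515), its neighbour and the member of the family highest in controls, moved otherwise, with 98.3, 94.5 and 98.1 scaled FPKM in controls, 111, 95.1 and 99.7 in eCRS and 66.8, 64.3 and 67.6 in eCRS_Exo. The eCRS_Exo libraries of Fmo6 lay below all the others, and its change against eCRS was 0.10 ± 0.21 as deposited (adjusted p = 0.676) and -0.61 ± 0.08 scaled (adjusted p = 0.00283). A ratio of neighbours inside 1 library needs no scaling. The ratio of Fmo2 to Fmo6 was 0.175, 0.172 and 0.195 in controls, 0.103, 0.137 and 0.111 in eCRS and 0.277, 0.2703 and 0.284 in eCRS_Exo, and the 3 groups did not overlap.

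The most abundant carbonyl reductase and carboxylesterase kept a near-constant ratio to each other. Cbr2 (chr11:120729489-120732114) had 955, 897 and 1014 FPKM in controls, 1312, 862 and 1240.2 in eCRS and 2249, 2099 and 1599 in eCRS_Exo. After scaling these became 1249, 1176 and 1325 in controls, 1228, 1214 and 1277 in eCRS and 1289, 1316 and 1359.8 in eCRS_Exo. The coefficient of variation over all 9 libraries was 38.2% as deposited and 4.64% scaled, the lowest of the 63 members tested as deposited. Its log2 change in eCRS was 0.23 ± 0.21 as deposited (adjusted p = 0.584) and -0.01 ± 0.13 scaled (adjusted p = 0.968), and in eCRS_Exo against eCRS 0.81 ± 0.21 as deposited (adjusted p = 0.00410) and 0.09 ± 0.13 scaled (adjusted p = 0.622). Cbr1, the general cytosolic carbonyl reductase, was chosen here after its values were seen, and varied nearly as little, with a coefficient of 4.78% scaled. By limma, 0 of the 4 Cbr genes were called in any comparison on the scaled values. At an unadjusted p under 0.05, 1 was lower in eCRS_Exo against eCRS, 1 was lower in eCRS_Exo against control and 0 differed in eCRS against control.

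Ces1d (chr8:93166068-93197838), a carboxylesterase that also hydrolyses triacylglycerol, took 79.6% to 81.8% of the summed Ces FPKM in controls, 78.8% to 80.5% in eCRS and 82.9% to 85.2% in eCRS_Exo. Its values were 136, 134 and 149 FPKM in controls, 199, 127 and 160.3 in eCRS and 309, 311 and 232 in eCRS_Exo. Ces1d followed Cbr2 closely: the ratio of the 2 genes lay between 0.129 and 0.152 in all 9 libraries, and the groups overlapped. The log2 change of Ces1d in eCRS_Exo against eCRS was 0.82 ± 0.20 as deposited (adjusted p = 0.00310) and 0.10 ± 0.10 scaled (adjusted p = 0.447), so its deposited rise is not seen after scaling. Of the Ces genes only Ces1f, chosen after its values were seen, was called on the scaled values in any comparison. It was lower in eCRS_Exo than in eCRS (-0.72 ± 0.09, adjusted p = 0.00225). Its scaled values were 8.29, 8.24 and 8.93 in controls, 9.78, 9.90 and 9.66 in eCRS and 5.25, 4.95 and 6.50 in eCRS_Exo. Of the 10 Ces2, Ces3 and Ces4 genes of chr8:104734003-105150109, 5 were listed at 0 in every library and 1 passed the filter.

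Aldehyde dehydrogenases moved in both directions on the scaled values. In eCRS against control they counted 2 of 18 higher and 0 lower as deposited (median log2 change 0.02), and 2 of 18 higher and 1 lower scaled (median -0.20), where all genes had 3.01% higher and 0.518% lower as deposited and 5.77% and 4.15% scaled. Aldh1a3 (ENSMUSG00000015134, chr7:66390890-66427517), which makes retinoic acid from retinaldehyde, stood at 1.57, 2.16 and 2.28 FPKM in controls, 6.73, 7.41 and 7.23 in eCRS and 4.82, 4.47 and 2.95 in eCRS_Exo. All eCRS libraries were above all others, and as deposited the eCRS_Exo libraries lay above the controls. Scaled, the eCRS_Exo libraries (2.76, 2.80 and 2.51) lay inside the range of the controls (2.05, 2.84 and 2.98). The log2 change from control to eCRS was 1.44 ± 0.19 as deposited (adjusted p = 8.87e-05) and 1.31 ± 0.16 scaled (adjusted p = 0.00129). From eCRS to eCRS_Exo it was -0.70 ± 0.19 as deposited (adjusted p = 0.00597) and -1.27 ± 0.16 scaled (adjusted p = 0.00218), which made Aldh1a3 the 1 member that fell there on both scales. Against control, eCRS_Exo differed by 0.75 ± 0.19 as deposited (adjusted p = 0.00207) and 0.04 ± 0.16 scaled (adjusted p = 0.882).

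Aldh1a1 (chr19:20492715-20643465), another retinaldehyde dehydrogenase, was much higher in level than Aldh1a3 and was not called in eCRS, with 171, 123 and 147 FPKM in controls, 152, 118 and 122 in eCRS and 184, 213 and 215 in eCRS_Exo (eCRS against control -0.17 ± 0.19, adjusted p = 0.676, as deposited, and -0.41 ± 0.20, adjusted p = 0.2395, scaled). Its neighbour Aldh1a7 (chr19:20692953-20727562), a close copy on the opposite strand, had 11.9, 12.4 and 12.2 FPKM in controls, 30.2, 18.6 and 21.5 in eCRS and 35.7, 37.8 and 23.8 in eCRS_Exo. All eCRS and eCRS_Exo libraries of Aldh1a7 lay above the controls on both scales. Its log2 change in eCRS was 0.86 ± 0.21 as deposited (adjusted p = 0.0245) and 0.64 ± 0.10 scaled (adjusted p = 0.00451), and in eCRS_Exo against control 1.31 ± 0.21 as deposited (adjusted p = 0.000103) and 0.40 ± 0.10 scaled (adjusted p = 0.0180). The first of these calls as deposited was lost (adjusted p between 0.083 and 0.099) without any 1 control library, eCRS library 1 or eCRS library 3. The scaled call in eCRS_Exo was lost without control library 1 or 3 or eCRS_Exo library 2 (adjusted p between 0.054 and 0.067).

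The ratio of Aldh1a7 to Aldh1a1 within a library was 0.0697, 0.101 and 0.0831 in controls, 0.199, 0.158 and 0.176 in eCRS and 0.194, 0.178 and 0.1104 in eCRS_Exo, with no control library reaching any treated one. The coding sequences of the pair are 91.6% identical, which bears on whether reads of one can be counted for the other, and the first 60 coding bases are shown for that reason, with the 3 bases that differ in capitals.
Aldh1a1: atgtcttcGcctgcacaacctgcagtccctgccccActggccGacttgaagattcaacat
Aldh1a7: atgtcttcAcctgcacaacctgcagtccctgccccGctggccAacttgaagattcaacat
Of the 50-base stretches of Aldh1a7 transcripts, 7.49% also occur in Aldh1a1, and 3.06% of those of Aldh1a1 occur in Aldh1a7. Most of the length of both genes can thus be told apart by exact 50-base matches.

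Aldh3b1 (chr19:3913491-3929808), which oxidises lipid-derived aldehydes at membranes, had 10.5, 8.25 and 9.46 FPKM in controls, 13.1, 10.5 and 16.4 in eCRS and 37.4, 32.8 and 27.3 in eCRS_Exo. The eCRS_Exo libraries were above all others on both scales, with scaled values of 21.4, 20.5 and 23.2 against 13.8, 10.8 and 12.4 in controls and 12.3, 14.8 and 16.9 in eCRS. Its log2 change was 1.23 ± 0.20 as deposited (adjusted p = 0.000383) and 0.54 ± 0.12 scaled (adjusted p = 0.0114) against eCRS, and 1.68 ± 0.20 as deposited (adjusted p = 8.30e-06) and 0.77 ± 0.12 scaled (adjusted p = 0.00336) against control. From control to eCRS it was 0.45 ± 0.20 as deposited (adjusted p = 0.262) and 0.23 ± 0.12 scaled (adjusted p = 0.263). Aldh3a1 (chr11:61207537-61218421), which oxidises aromatic and lipid aldehydes, was called as deposited only, at 52.5, 30.8 and 40.3 FPKM in controls, 44.1, 38.1 and 39.5 in eCRS and 99.4, 92.8 and 86.9 in eCRS_Exo (eCRS_Exo against eCRS 1.18 ± 0.20, adjusted p = 0.000463, as deposited, and 0.47 ± 0.19, adjusted p = 0.0867, scaled).

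Aldh2 (chr5:121566027-121593824), the mitochondrial enzyme that oxidises acetaldehyde, had 59.4, 57.1 and 51.8 FPKM in controls, 52.9, 31.03 and 41.5 in eCRS and 107, 97.6 and 70.1 in eCRS_Exo. Scaled, these values were 77.7, 74.9 and 67.7 in controls, 49.5, 43.7 and 42.7 in eCRS and 61.5, 61.2 and 59.6 in eCRS_Exo, 3 groups without overlap and with eCRS lowest. The change from control to eCRS was -0.45 ± 0.21 as deposited (adjusted p = 0.298) and -0.69 ± 0.09 scaled (adjusted p = 0.00158), and from eCRS to eCRS_Exo 1.13 ± 0.21 as deposited (adjusted p = 0.000775) and 0.42 ± 0.09 scaled (adjusted p = 0.00878). Aldh1l1, a formyltetrahydrofolate dehydrogenase, and Aldh4a1, a mitochondrial enzyme of proline breakdown, also rose in eCRS_Exo against eCRS on both scales, by 0.29 ± 0.09 and 0.32 ± 0.10 on the scaled log2 values (adjusted p = 0.02999 and 0.0392). Both scaled calls were lost on leaving out single libraries, with adjusted p between 0.053 and 0.082 for Aldh1l1 without any 1 eCRS or eCRS_Exo library. For Aldh4a1 they ran from 0.053 to 0.14 without any 1 library other than eCRS library 2 and eCRS_Exo library 3.

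**Figure D3:**
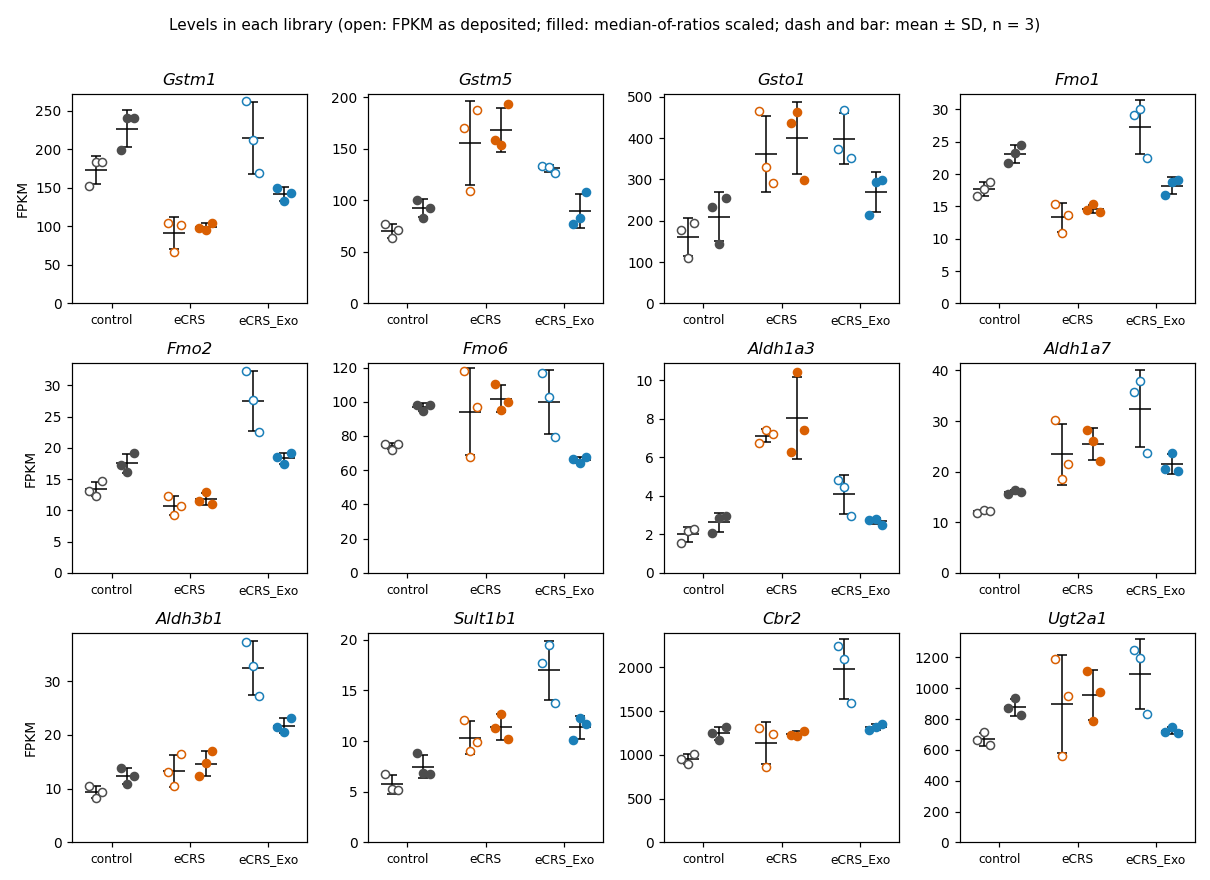
Level of 12 members in each library, with open points for FPKM as deposited and filled points for scaled FPKM, and the mean ± SD of the 3 libraries of each group as dash and bar. In Gstm1 the eCRS libraries are lowest and in Gstm5 they are highest on the scaled values, while the scaled values of Cbr2 hold between 1176 and 1360 in all libraries.

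Among the conjugating enzymes, 0 of the 5 tested glucuronosyltransferases were called by limma on the scaled values in any comparison. At an unadjusted p under 0.05, 1 was lower in eCRS_Exo against eCRS. Ugt2a1 (chr5:87459490-87490871) had 665, 714 and 631 FPKM in controls, 1187, 559.7 and 949 in eCRS and 1251, 1198 and 834 in eCRS_Exo, and eCRS library 2 lay below the controls while the other 2 eCRS libraries lay above. Its log2 change was 0.36 ± 0.24 as deposited (adjusted p = 0.468) and 0.12 ± 0.15 scaled (adjusted p = 0.667) in eCRS, 0.33 ± 0.24 as deposited (adjusted p = 0.231) and -0.39 ± 0.15 scaled (adjusted p = 0.0762) in eCRS_Exo against eCRS, and 0.69 ± 0.24 as deposited (adjusted p = 0.0147) and -0.27 ± 0.15 scaled (adjusted p = 0.194) in eCRS_Exo against control. The scaled values of the eCRS_Exo libraries (717, 750.5 and 709) were below those of every other library (869.9, 936 and 825 in controls and 1111, 788 and 977 in eCRS), a gap that did not pass the test. Ugt2a2 (chr5:87459490-87482260), read from a start within the same gene region, had 33.5, 43 and 30.3 FPKM in controls, 65.8, 23.01 and 43.99 in eCRS and 71.3, 78.3 and 57.5 in eCRS_Exo. Its scaled change from control to eCRS_Exo was 0.00 ± 0.21. Per length, Ugt2a2 stood at 0.0480 to 0.0602 of Ugt2a1 in controls, 0.0411 to 0.0554 in eCRS and 0.0570 to 0.0689 in eCRS_Exo. The range in controls overlaps both others, and those of eCRS and eCRS_Exo do not overlap.

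The split between these 2 genes is uncertain, because they share their later exons: 68.4% of the 50-base stretches of Ugt2a1 occur in Ugt2a2 and 68.6% the other way. Counting every annotated gene, 97.0% of those of Ugt2a1 and 93.6% of those of Ugt2a2 occur elsewhere. What sets the pair apart is the first exon and the promoter. Set side by side without gaps, the first 60 coding bases differ at 35 positions, shown in capitals.
Ugt2a1: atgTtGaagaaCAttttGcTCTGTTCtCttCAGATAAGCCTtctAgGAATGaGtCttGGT
Ugt2a2: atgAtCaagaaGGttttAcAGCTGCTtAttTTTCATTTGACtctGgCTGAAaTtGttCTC
The 250 bases before each start (RefSeq, GRCm38.p6) show the separate promoters of the pair, with a match to a STAT6-type spaced palindrome (TTC, any 4 bases, GAA) in capitals, which starts 158 bases before the Ugt2a2 start.
Ugt2a1 promoter, chr5:87490872-87491121, minus strand: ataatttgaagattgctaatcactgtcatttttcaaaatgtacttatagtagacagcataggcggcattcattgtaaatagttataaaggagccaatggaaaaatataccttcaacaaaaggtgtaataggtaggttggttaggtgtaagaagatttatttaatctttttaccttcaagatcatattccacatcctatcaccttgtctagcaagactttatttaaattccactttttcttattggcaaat
Ugt2a2 promoter, chr5:87482259-87482508, minus strand: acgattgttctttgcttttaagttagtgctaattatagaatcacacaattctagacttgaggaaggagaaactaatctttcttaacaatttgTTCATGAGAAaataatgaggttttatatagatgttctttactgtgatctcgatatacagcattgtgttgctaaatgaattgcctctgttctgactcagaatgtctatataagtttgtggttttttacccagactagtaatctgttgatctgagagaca
Both genes lie in chr5:86889767-87591594, a stretch of 13 members that also holds all 7 Ugt2b genes and the sulfotransferases Sult1b1, Sult1d1 and Sult1e1. Of these 13, the 5 that passed the filter were Ugt2a1, Ugt2a2 and the 3 sulfotransferases.

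The Ugt1a genes (chr1:88055388-88220002) share their last exons, and their levels were low. Ugt1a6a, the highest, which glucuronidates phenols, had 5.50, 4.52 and 7.57 FPKM in controls, 6.35, 5.68 and 5.45 in eCRS and 12.9, 11.3 and 9.80 in eCRS_Exo. Its log2 change in eCRS_Exo against eCRS was 0.85 ± 0.20 as deposited (adjusted p = 0.00218) and 0.21 ± 0.17 scaled (adjusted p = 0.377). Ugt1a6a and Ugt1a6b are 98.4% identical in coding sequence, so their separate values are uncertain.

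Glutathione transferases of the mu class changed in opposite directions after papain. Gstm1 (ENSMUSG00000058135, chr3:108012255-108017973) had 153, 183 and 184 FPKM in controls, 105, 67.4 and 101 in eCRS and 262, 212 and 169 in eCRS_Exo. Scaled, the values were 199.6, 240.4 and 241 in controls, 97.8, 94.9 and 104 in eCRS and 150.2, 133 and 144 in eCRS_Exo, so that no group overlapped another and eCRS was lowest. The change from control to eCRS was -0.94 ± 0.21 as deposited (adjusted p = 0.0144) and -1.18 ± 0.10 scaled (adjusted p = 0.000220), and from eCRS to eCRS_Exo 1.23 ± 0.21 as deposited (adjusted p = 0.000530) and 0.52 ± 0.10 scaled (adjusted p = 0.00793). The deposited call in eCRS was lost without control library 2 or 3 (adjusted p = 0.073 and 0.068). Against control, eCRS_Exo differed by 0.29 ± 0.21 as deposited (adjusted p = 0.209) and -0.67 ± 0.10 scaled (adjusted p = 0.00329).

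Gstm5 (ENSMUSG00000004032, chr3:107895821-107898686), at one end of the same cluster (chr3:107895821-108044894, 7 Gstm genes), had 76.9, 63.4 and 71.1 FPKM in controls, 169.6, 109 and 188 in eCRS and 134, 133 and 127 in eCRS_Exo. The eCRS libraries 1 and 3 were the highest, and all 3 lay above the controls. Its change from control to eCRS was 1.10 ± 0.20 as deposited (adjusted p = 0.00289) and 0.86 ± 0.15 scaled (adjusted p = 0.00643), and from eCRS to eCRS_Exo -0.21 ± 0.20 as deposited (adjusted p = 0.361) and -0.92 ± 0.15 scaled (adjusted p = 0.00399). The ratio of Gstm5 to Gstm1 within a library was 0.504, 0.346 and 0.386 in controls, 1.62, 1.62 and 1.85 in eCRS and 0.5096, 0.626 and 0.751 in eCRS_Exo. Gstm5 was thus the higher of the pair per length in each eCRS library and the lower in each of the other 6. Gstm2, which lies between them and was chosen after its values were seen, had a ratio to Gstm1 of 0.334, 0.327 and 0.318 in controls, 0.456, 0.501 and 0.471 in eCRS and 0.308, 0.345 and 0.316 in eCRS_Exo.

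**Figure D4:**
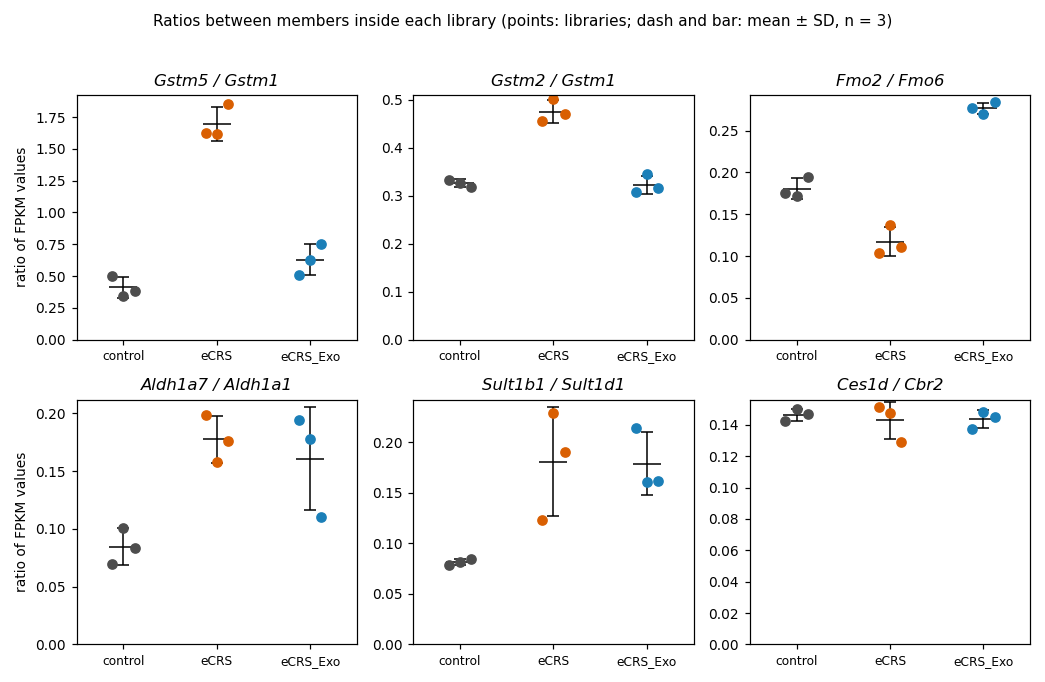
Ratio of the FPKM values of 2 members inside each library (points), which no library-wide scaling changes, with the mean ± SD of the 3 libraries of each group as dash and bar. Gstm5 / Gstm1 lies between 1.62 and 1.85 in eCRS and between 0.346 and 0.751 elsewhere, whereas Ces1d / Cbr2 stays between 0.129 and 0.152.

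Shared sequence bears on how far reads of one mu-class gene can be mistaken for another. Gstm1 and Gstm5 share 71.7% of aligned coding bases, and Gstm1 and Gstm2 share 86.0%. The first 60 coding bases of the closer pair differ at 12 positions, in capitals.
Gstm1: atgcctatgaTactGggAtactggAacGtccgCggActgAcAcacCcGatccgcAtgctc
Gstm2: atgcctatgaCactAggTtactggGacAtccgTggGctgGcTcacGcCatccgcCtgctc
Of the 50-base stretches of Gstm1, 18.9% occur in another gene, most of them in the pseudogene Gstm2-ps1. Of those of Gstm5, 9.44% occur elsewhere, all in the overlapping gene 4933431E20Rik. Whether the authors' counting used strand is not given, so reads of this shared part cannot be told apart between the overlapping gene and Gstm5. The remaining 50-base stretches of Gstm5 occur in no other gene of the annotation.

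Gsto1 (chr19:47854970-47864790), an omega-class enzyme known for thiol transfer and dehydroascorbate reduction, had 177, 109 and 195 FPKM in controls, 466, 329.5 and 291 in eCRS and 373, 468 and 352 in eCRS_Exo. Every eCRS and eCRS_Exo library lay above the controls as deposited. Scaled, the lowest eCRS_Exo library (214) lay inside the control range. Its change from control to eCRS was 1.18 ± 0.23 as deposited (adjusted p = 0.00457) and 0.94 ± 0.25 scaled (adjusted p = 0.0397), and the scaled call was lost (adjusted p between 0.055 and 0.12) without any 1 control library, eCRS library 1 or 2, or eCRS_Exo library 2. None of its 50-base stretches occurs in another gene. Gsta4 (chr9:78182774-78209349), which conjugates aldehydes from lipid peroxidation, had 111, 84.3 and 111 FPKM in controls, 88.7, 87.1 and 90.5 in eCRS and 137, 149 and 124 in eCRS_Exo. The ratio of Gsto1 to Gsta4 was 1.60, 1.30 and 1.75 in controls, 5.26, 3.79 and 3.22 in eCRS and 2.73, 3.15 and 2.84 in eCRS_Exo, with every control library below all the others.

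Gstp1 (chr19:4035407-4037985), the pi-class enzyme of many epithelia, did not follow the groups, with 5.01, 12.6 and 12.03 FPKM in controls, 3.43, 2.11 and 12.96 in eCRS and 5.08, 5.62 and 14.96 in eCRS_Exo. Its log2 change in eCRS was -0.82 ± 0.43 as deposited (adjusted p = 0.3397) and -1.07 ± 0.59 scaled (adjusted p = 0.291). Its coefficient of variation over the scaled libraries, 68.2%, was the highest of the 63 members. Gstp1 has a near-identical neighbour, Gstp2, with 98.1% of coding bases the same and 33.7% of the 50-base stretches of Gstp1 in common, so its level is uncertain. The first 60 coding bases are shown with the 6 that differ in capitals.
Gstp1: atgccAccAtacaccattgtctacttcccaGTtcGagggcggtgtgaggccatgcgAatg
Gstp2: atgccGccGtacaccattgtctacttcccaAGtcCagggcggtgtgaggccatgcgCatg
By contrast, 17 of the 63 tested members have no 50-base stretch in another gene, and 18 have 10% or more.

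Promoters were read for 95 of the 115 members from RefSeq. The 250 bases before the start are shown for 3 members that rose in eCRS on both scales, with matches to the core TGACNNNGC of the antioxidant response element in capitals.
Gstm5 promoter, chr3:107895604-107895853, plus strand: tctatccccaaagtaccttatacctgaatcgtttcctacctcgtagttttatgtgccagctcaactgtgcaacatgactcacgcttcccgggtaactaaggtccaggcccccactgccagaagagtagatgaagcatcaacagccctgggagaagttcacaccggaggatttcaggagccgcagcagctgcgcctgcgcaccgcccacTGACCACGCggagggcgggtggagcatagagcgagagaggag
Gsto1 promoter, chr19:47854723-47854972, plus strand: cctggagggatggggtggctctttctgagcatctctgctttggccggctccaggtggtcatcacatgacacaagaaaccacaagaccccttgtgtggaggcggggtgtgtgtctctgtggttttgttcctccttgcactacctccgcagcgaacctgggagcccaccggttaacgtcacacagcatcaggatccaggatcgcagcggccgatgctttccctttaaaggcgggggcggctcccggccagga
Aldh1a7 promoter, chr19:20727557-20727806, minus strand: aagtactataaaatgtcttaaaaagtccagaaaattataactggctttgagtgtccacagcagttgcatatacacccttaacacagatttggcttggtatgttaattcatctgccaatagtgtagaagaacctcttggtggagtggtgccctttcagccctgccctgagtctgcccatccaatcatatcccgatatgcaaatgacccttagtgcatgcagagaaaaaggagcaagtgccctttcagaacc
The single match among these starts 42 bases before the Gstm5 start. Sult1b1, which also rose in eCRS on both scales, had no such match in its promoters, and no promoter was read for Aldh1a3. Both strands were searched. At least 1 match was found in 5 of the 49 tested members with a promoter (10.2%), and in 11.5% of all genes and 10.2% of all promoters of this length. The core GCGTG of the xenobiotic response element was found in 13 of the 49 (26.5%, beside 30.9% of all genes), the STAT6-type palindrome in 4 (8.16%, beside 6.76%) and CCCNNGGG, a motif of EBF factors, in 6 (12.2%, beside 13.4%). A match is a description of letters, and these shares lay near those of all genes.

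Among sulfotransferases, Sult1c1 (chr17:53961615-53990674) was the most abundant, with 206, 197 and 185 FPKM in controls, 383, 223 and 409.6 in eCRS and 480.1, 493 and 361 in eCRS_Exo. All eCRS libraries lay above the controls. Its change in eCRS was 0.74 ± 0.22 as deposited (adjusted p = 0.0738) and 0.50 ± 0.13 scaled (adjusted p = 0.0345), and the scaled call was lost (adjusted p between 0.054 and 0.12) without any 1 control library, eCRS library 1 or 3, or eCRS_Exo library 2. Sult1b1 (chr5:87513339-87538195), which sulfates thyroid hormones and phenols, had 6.76, 5.24 and 5.18 FPKM in controls, 12.1, 9.02 and 9.89 in eCRS and 17.7, 19.5 and 13.7 in eCRS_Exo, and the controls were below all other libraries. The change from control to eCRS was 0.75 ± 0.19 as deposited (adjusted p = 0.0327) and 0.55 ± 0.12 scaled (adjusted p = 0.0180), and from control to eCRS_Exo 1.41 ± 0.19 as deposited (adjusted p = 3.15e-05) and 0.54 ± 0.12 scaled (adjusted p = 0.0105). The first of these was lost without any 1 control library, eCRS library 1 or 3 as deposited (adjusted p between 0.053 and 0.19), and without control library 2 or 3 or eCRS library 2 scaled (0.053 to 0.076).

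Its neighbour Sult1d1 (chr5:87554645-87569027), which sulfates catecholamines, was not called in eCRS, with 85.5, 64.6 and 61.1 FPKM in controls, 98.6, 39.4 and 51.9 in eCRS and 82.3, 121 and 85.1 in eCRS_Exo. The ratio of Sult1b1 to Sult1d1 was 0.0791, 0.0811 and 0.0847 in controls, 0.123, 0.229 and 0.191 in eCRS and 0.215, 0.161 and 0.162 in eCRS_Exo. Sult4a1 (chr15:84076097-84105754), a form known from neurons, had 5.94, 7.55 and 6.39 FPKM in controls, 10.6, 3.44 and 6.03 in eCRS and 20.8, 22.02 and 11.2 in eCRS_Exo. Its change in eCRS_Exo against eCRS was 1.36 ± 0.28 as deposited (adjusted p = 0.00123) and 0.71 ± 0.21 scaled (adjusted p = 0.0317). The scaled groups overlapped, and the scaled call was lost without eCRS library 2 or 3 or eCRS_Exo library 1 or 2 (adjusted p between 0.091 and 0.11). The summed scaled level of 12 olfactory neuron markers, none at 0 throughout, moved with it, from 719 to 889.6 in controls to 299 to 550.1 in eCRS and 673 to 1187 in eCRS_Exo. The part of that in the Sult4a1 result was not tested.

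Markers of the cell types that the tissue can hold had the following levels. The 7 sustentacular markers summed to 2587 to 2904 scaled FPKM in controls, 2597 to 3136 in eCRS and 2129 to 2395 in eCRS_Exo. On the scaled values 3 of 7 were called higher in eCRS than in control and 0 lower, beside 5.77% and 4.15% of all genes. All eCRS_Exo sums of this list lay below the other libraries, as the scaled values of Ugt2a1 and Fmo6 did. Marker by marker, however, limma called 0 of 7 on the scaled values in eCRS_Exo against eCRS (median log2 change -0.15). At an unadjusted p under 0.05, 1 was higher and 3 lower there. Against control 1 of 7 was called higher and 0 lower (median 0.17), beside 12.3% and 15.6% of all genes. The 6 Bowman gland markers summed to 77187 to 83263, 30088 to 69365 and 21575 to 38056, a sum led by secreted proteins. The 5 fibroblast markers summed to 492 to 688, 407 to 581 and 274 to 461, the 7 macrophage markers to 56.6 to 57.2, 73.1 to 92.97 and 81.2 to 84.8, and the 4 basal cell markers to 45.7 to 78.1, 80.1 to 121 and 66.1 to 90.3. The 5 neutrophil markers summed to 25.9 to 44.4, 54.4 to 94.9 and 42.4 to 77.6, the 4 eosinophil markers to 0.0681 to 0.306, 1.16 to 1.52 and 0.6199 to 0.8097, the 5 respiratory secretory and goblet cell markers to 792 to 875, 587 to 664 and 767 to 888, and the 4 endothelial markers to 7.41 to 7.85, 6.16 to 6.82 and 4.26 to 5.31. The secretory and goblet sum was lower in eCRS than in control while 3 of its 4 tested markers were called higher and 1 lower on the scaled values. The Bowman gland sum was lower while 1 of 6 markers was called higher and 0 lower. Of all genes, 5.77% were higher and 4.15% lower there. No marker of these lists was at 0 in every library. No eosinophil marker passed the filter, so none of them was tested. Scaled sums higher in every eCRS library than in every control library were those of macrophages, neutrophils, eosinophils and basal cells, and sums lower without overlap were those of Bowman gland, secretory and goblet, endothelial cell and olfactory neuron markers. From control to eCRS these sums moved together with the rises of Gstm5, Gsto1, Aldh1a3 and Aldh1a7 and the fall of Gstm1. In eCRS_Exo the macrophage sum stayed above the controls, while the scaled values of Gstm5 and Aldh1a3 overlapped them. The sustentacular sum moved with Ugt2a1 and Fmo6 in eCRS_Exo, where none of its 7 markers was called lower on the scaled values. The part of these cell types in the results was not tested.

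The genes around these families are given as lists, beside the shares of all genes tested. In eCRS against control, 3.01% of all genes were higher and 0.518% lower as deposited (median log2 change 0.19), and 5.77% and 4.15% scaled (median -0.00399). In eCRS_Exo against eCRS, 63% were higher and 0.73% lower as deposited (median 0.56), and 13.4% and 16.2% scaled (median -0.00587). Cofactor supply, the making of UDP-glucuronic acid, sulfate donor and glutathione, counted 2 of 10 higher and 0 lower as deposited (median log2 change 0.39), and 2 of 10 higher and 0 lower scaled (median 0.17) in eCRS against control. The cystine carrier Slc7a11, from 0.382 ± 0.0620 to 1.79 ± 0.917 FPKM, and glutathione reductase Gsr, from 7.75 ± 0.485 to 15.97 ± 3.21 FPKM, rose on both scales. The log2 change was 0.96 ± 0.20 as deposited (adjusted p = 0.00640) and 0.93 ± 0.17 scaled (adjusted p = 0.00847) for Slc7a11, and 0.94 ± 0.20 as deposited (adjusted p = 0.00928) and 0.73 ± 0.07 scaled (adjusted p = 0.000328) for Gsr. For eCRS_Exo against eCRS this list counted 4 of 10 higher and 1 lower as deposited (median log2 change 0.40). Scaled, it counted 1 of 10 higher and 4 lower there (median -0.26). Slc7a11 fell there on both scales (-0.46 ± 0.20, adjusted p = 0.0465, as deposited, and -0.80 ± 0.17, adjusted p = 0.00873, scaled). Por, which hands electrons to P450 enzymes, rose (1.15 ± 0.22, adjusted p = 0.000906, as deposited, and 0.43 ± 0.10, adjusted p = 0.0124, scaled).

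The list of other non-P450 enzymes counted 1 of 25 higher and 1 lower as deposited (median log2 change 0.09), and 1 of 26 higher and 4 lower scaled (median -0.11) in eCRS. There the microsomal transferase Mgst2 rose, from 2.92, 1.51 and 2.27 FPKM in the control libraries to 9.25, 5.64 and 11.7 in eCRS (1.58 ± 0.23, adjusted p = 0.000209, as deposited, and 1.44 ± 0.22, adjusted p = 0.00395, scaled), and the alcohol dehydrogenase Adh1, which oxidises retinol and ethanol, fell, from 113, 111 and 130.3 to 71.2, 68.04 and 70.1 FPKM (-0.75 ± 0.18, adjusted p = 0.0188, as deposited, and -0.99 ± 0.17, adjusted p = 0.00733, scaled). In eCRS_Exo against eCRS the list counted 13 of 25 higher and 0 lower as deposited (median log2 change 0.50), and 2 of 26 higher and 6 lower scaled (median -0.18), beside 63% of all genes higher as deposited and 16.2% lower scaled. The microsomal epoxide hydrolase Ephx1 and the aldehyde reductase Akr7a5 rose on both scales. NRF2 targets outside the families, the genes switched on by the antioxidant response factor, counted 2 of 15 higher and 0 lower as deposited (median log2 change 0.23), and 2 of 15 higher and 2 lower scaled (median 0.04) in eCRS, beside 3.01% and 5.77% of all genes higher and 0.518% and 4.15% lower. Gpx2, a glutathione peroxidase of epithelia, rose from 31.2 ± 6.88 to 70.8 ± 11.1 FPKM (1.17 ± 0.22, adjusted p = 0.00261, as deposited, and 0.93 ± 0.16, adjusted p = 0.00722, scaled). In eCRS_Exo against eCRS the NRF2 list counted 8 of 15 higher and 1 lower as deposited (median log2 change 0.60), and 1 of 15 higher and 4 lower scaled (median -0.08), beside 63% and 13.4% of all genes higher and 0.73% and 16.2% lower. Its 1 member higher on both scales was Txnrd1, thioredoxin reductase (1.18 ± 0.24, adjusted p = 0.00104, as deposited, and 0.49 ± 0.12, adjusted p = 0.0148, scaled).

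Retinoid pathway genes outside the families counted 2 of 11 higher and 0 lower as deposited (median log2 change 0.42), and 4 of 11 higher and 1 lower scaled (median 0.23) in eCRS, beside 3.01% and 5.77% of all genes higher. Dhrs9, which oxidises retinol, rose from 1.94 ± 1.02 to 9.41 ± 2.40 FPKM (1.85 ± 0.25, adjusted p = 7.64e-05, as deposited, and 1.73 ± 0.24, adjusted p = 0.00226, scaled), and Crabp2, a retinoic acid carrier, from 9.57 ± 1.09 to 21.6 ± 8.70 FPKM (1.01 ± 0.26, adjusted p = 0.0315, as deposited, and 0.79 ± 0.16, adjusted p = 0.0155, scaled). In eCRS_Exo against eCRS the retinaldehyde reductase Dhrs3 and the retinol receptor Stra6 rose on both scales, by 0.40 ± 0.09 and 0.37 ± 0.08 on the scaled log2 values (adjusted p = 0.00979 and 0.00843). The efflux transporters, which carry conjugates out of the cell, counted 4 of 5 higher and 0 lower as deposited (median log2 change 1.03), and 3 of 5 higher and 0 lower scaled (median 0.40) in that comparison, beside 63% and 13.4% of all genes higher, with Abcc1 and Abcc5 higher on both scales. The xenobiotic regulators counted 0 of 6 higher and 0 lower as deposited (median log2 change 0.21), and 0 of 6 higher and 0 lower scaled (median 0.02) in eCRS by limma, where 1 was higher and 0 lower as deposited, and 1 higher and 1 lower scaled, at an unadjusted p under 0.05.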

How the data were processed

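RNA sequencing values of 9 mouse nasal mucosa libraries (3 groups of 3, groups and replicate numbers from the sample titles) were taken from 1 table of FPKM values that the authors deposited for 21930 Ensembl genes. Per the submitters' processing notes, the tools were fastp 0.19.4, HISAT2 and StringTie with the build mm10. For the annotation, the strand setting and multi-mapping reads, the method is not given in the sources used here. Since FPKM is relative to the library total, abundant genes move all other values. A gene at an FPKM of 0 is called listed at 0, and these values allow no count test.

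Symbols matched 21817 identifiers and 113 had none. Coordinates and transcripts were from GENCODE M21 (GRCm38), promoters from RefSeq (GRCm38.p6). The test was limma 3.58.1 (R 4.3.3) on log2(FPKM + 1) (mean-variance trend, all 9 libraries in 1 fit, genes of at least 1 FPKM in at least 3 libraries, Benjamini-Hochberg adjustment over all genes, threshold 0.05), as deposited and after median-of-ratios scaling. Fold changes on this scale understate the change of low genes, and the fit was tested on simulated data. An exact permutation test of 3 against 3 libraries cannot go below 0.1 and was not used. Pairs of libraries had Spearman correlations of 0.979 to 0.988 inside a group and 0.966 to 0.98 across groups. Depth was estimated from the spacing of low values and is rough.

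The members and gene lists were chosen with earlier results of these data known. Members named are the highest of each family in controls, up to 4 of smallest p called on both scales in each comparison, and a set list (such as Ugt2a1, Gstm1, Cbr2 and Aldh1a1). Those outside the rule, and the ratios within libraries, were chosen after their values were seen, and the ratios carry no test. Up to 2 genes of each pathway list were named by the same rule. Of the members that the rule names, 1 is not reported here, and the counts include it. Alternatives were other scalings, pseudocounts (0.1) and filters (none, 5 FPKM), no trend, fits of 2 groups, a replicate block and each library left out. Figures used Python 3.11.15, NumPy 2.4.6, pandas 2.3.3 and matplotlib 3.10.9.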

Additional observations from a re-analysis of the deposited data

How the results depend on the processing

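Starting from the counts as deposited, members lower in eCRS than in control went from 2 to 8 with median-of-ratios scaling, 10 with quantile normalization, 1 when rescaled to a common sum (TPM) and 0 with no filter. Members higher there went from 5 to 3 with TPM and 2 with no filter. In eCRS_Exo against eCRS the count higher went from 40 to 8 with median-of-ratios scaling and 12 with quantile normalization, and the count lower from 1 to 6 with either and 0 with TPM. In eCRS_Exo against control the count higher went from 44 to 3 with median-of-ratios scaling and 6 with quantile normalization, and the count lower from 0 to 17 and 15. With median-of-ratios scaling the share of all genes lower in eCRS against control went from 0.518% to 4.15%. The share higher went from 63% to 13.4% in eCRS_Exo against eCRS and from 84.3% to 12.3% against control. The shares lower went from 0.73% to 16.2% and from 0.526% to 15.6%.

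Leaving out each library gave 3 to 11 higher and 1 to 3 lower in eCRS against control as deposited and 3 to 6 higher and 6 to 9 lower scaled. For eCRS_Exo against eCRS it gave 27 to 45 higher and 1 to 2 lower as deposited, and 4 to 8 higher and 6 to 8 lower scaled. For eCRS_Exo against control it gave 34 to 48 higher and 0 to 1 lower as deposited, and 2 to 4 higher and 7 to 18 lower scaled. Where the counts of all genes in these fits are given above, they moved the same way.

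Of 2490 results of 26 members under these alternatives, 2272 kept their call, 156 lost it, 40 gained it and 22 changed sign with a call in either fit. Sign changes without a call in either fit are counted among the 2272. These 22 were all against the deposited values. With median-of-ratios scaling the log2 change of eCRS_Exo against eCRS became Sult1b1 -0.00639, Sult1d1 -0.0241, Gsta4 -0.0988, Aldh1a1 -0.0680, Fmo6 -0.609. Against control it became Gstm5 -0.0596, Aldh2 -0.267, Gsta4 -0.528, Fmo1 -0.3302, Aldh1a1 -0.473, Gstm1 -0.667, Fmo6 -0.543, Ugt2a1 -0.272. With quantile normalization it became Fmo6 -0.314 against eCRS, and against control Aldh1a3 -0.000539, Aldh2 -0.0756, Aldh1l1 -0.0232, Gsta4 -0.257, Fmo1 -0.232, Aldh1a1 -0.214, Gstm1 -0.374, Fmo6 -0.356. The cause of these changes was not tested. With no filter Gsto1, Gstm1, Aldh1a7 and Sult1b1 lost their deposited calls in eCRS against control.

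Libraries that share a number in the titles did not deviate together (correlations -0.312 to 0.141 over 9 pairs), so the numbers were not taken to pair them. Libraries of different numbers reached 0.402, so not every library correlated best with its own number. With the number as a replicate block the scaled counts were 4 higher and 8 lower, 6 and 6, and 3 and 13 in the 3 comparisons, and the deposited counts 5 and 2, 40 and 1, and 45 and 0. No count moved by over 1.5 times, and of the single-member results 149 kept their call and 7 lost it. With 3 libraries a group and rough depths, genes near 1 FPKM are the least certain.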

Other observations

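Several members outside the naming rule, chosen after their values were seen, fell in eCRS_Exo on the scaled values only. Sult1e1, the estrogen sulfotransferase, had 46.1, 42.7 and 41.8 scaled FPKM in controls, 50.8, 61.9 and 55.4 in eCRS and 25.6, 30.5 and 40.9 in eCRS_Exo, with a change against eCRS of -0.10 ± 0.18 as deposited (adjusted p = 0.626) and -0.79 ± 0.15 scaled (adjusted p = 0.00662). The eCRS_Exo libraries of Sult1e1 lay below all the others. Gstk1, the kappa-class glutathione transferase, had 11.6, 13.04 and 14.7 in controls, 9.45, 10.5 and 12.1 in eCRS and 7.11, 6.55 and 7.68 in eCRS_Exo, with a change against eCRS of 0.12 ± 0.20 as deposited (adjusted p = 0.580) and -0.52 ± 0.11 scaled (adjusted p = 0.00949).

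Gstm2 fell in eCRS on the scaled values and had like values in eCRS_Exo, at 66.6, 78.5 and 76.5 in controls, 44.5, 47.5 and 49.1 in eCRS and 46.2, 45.7 and 45.3 in eCRS_Exo, whereas its neighbour Gstm1 rose again between the last 2 groups. The change of Gstm2 was -0.40 ± 0.20 as deposited (adjusted p = 0.3302) and -0.64 ± 0.08 scaled (adjusted p = 0.00201) in eCRS against control, and 0.66 ± 0.20 as deposited (adjusted p = 0.00987) and -0.04 ± 0.08 scaled (adjusted p = 0.758) in eCRS_Exo against eCRS.

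Sult6b1 varied within groups as Gstp1 did, with 4.85, 5.89 and 8.75 FPKM in controls, 9.34, 0.713 and 5.01 in eCRS and 2.81, 10.3 and 3.78 in eCRS_Exo, a coefficient of variation of 59.2% over the scaled libraries. It was not called in any comparison on either scale. In Gstp1 the low values were those of control library 1, eCRS libraries 1 and 2 and eCRS_Exo libraries 1 and 2, and in Sult6b1 the lowest was eCRS library 2.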
